A study of Mus musculus with 8 samples.

Results

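Chemokines are small secreted proteins that steer the movement of leukocytes, and the genes that encode them and their receptors were followed in hepatic stellate cells of mice, with and without deletion of the transcription factor gene Lhx2. Members were all genes whose platform annotation gives a single symbol of the form Ccl, Cxcl, Ccr, Cxcr, Xcr or Ackr with a number, together with Cx3cl1, Cx3cr1, Xcl1 and Pf4. This rule found 56 of the 19938 genes measured, represented by 61 probe sets, of which the one with the highest mean stood for its gene. The 56 comprised 19 CC ligands, 14 CXC ligands, 2 ligands of the C and CX3C kinds, 9 CC receptors, 6 CXC receptors, 2 receptors of the C and CX3C kinds and 4 atypical receptors. A further 7 probe sets carry the symbols of several chemokine genes at once, those of the Ccl21 and Ccl27 families, and were not counted as members.

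Stellate cells are the vitamin A-storing pericytes of the liver sinusoid and the main source of scar-forming cells in liver fibrosis. The knockout group held 4 arrays, numbered 5 to 8, of cells from mice with floxed Lhx2 that carried the Mx1Cre transgene. The control group held 4 arrays, numbered 1 to 4, of cells from mice with floxed Lhx2 without Mx1Cre. All mice were of C57BL/6J background and had been treated 3 times with the interferon inducer poly(I:C). Stellate cells were taken 2 weeks afterwards on a density gradient and sorted by the autofluorescence of their retinoid stores. Mx1Cre is driven by an interferon-inducible promoter that responds in blood cells, hepatocytes and other liver cells, so deletion was not restricted to stellate cells, and because only the knockout mice carried Cre, the effect of the transgene and the loss of Lhx2 cannot be told apart. The animals' age is not stated in the labels, nor is it stated whether each array came from a separate mouse, so each p-value reflects only how far these 8 samples scatter, which may be technical. Each array was an Affymetrix Mouse Gene 1.0 ST array, and all levels are deposited log2 values normalized with the Robust Multichip Algorithm (RMA).

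Chemokines are named for the spacing of their first cysteines (CC, CXC, C and CX3C). Most act through G protein-coupled receptors of the matching class. They are held on heparan sulfate chains at cell surfaces and in matrix, and they are taken up without G protein signalling by atypical receptors (the Ackr genes), which scavenge or transport them. In the liver, stellate cells are known to secrete Ccl2 and Cxcl12, sinusoidal endothelial cells and macrophages to secrete Cxcl9, Cxcl10 and Cxcl16, and leukocytes to carry most of the classical receptors.

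Lhx2 itself had values of 11.09, 11.24, 11.35 and 11.49 in knockout 5 to 8, against 12.07, 11.88, 11.94 and 11.92 in control 1 to 4. Its level in the knockout arrays was 63.3% of that in control arrays (log2 difference -0.66, SE 0.086, limma adjusted p = 0.00136). The groups did not overlap (exact two-sided permutation test over 70 assignments, p = 0.0286, the smallest that 4 against 4 arrays can give). The single probe set of Lhx2 may not lie within the deleted part of the gene. Throughout, a gene was called higher or lower where limma's moderated test, fitted over all 19938 genes with Benjamini-Hochberg adjustment, gave an adjusted p under 0.05, and array values are listed in the order knockout 5 to 8 and control 1 to 4. As a guide to levels that carry no expression, the 1207 olfactory, vomeronasal and trace amine receptor genes had a median of 5.40 and a 95th percentile of 6.77.

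The sorted cells carried the defining markers of stellate cells: Lrat, which stores retinol as ester, read 13.72 to 13.79 in knockout arrays and 13.43 to 13.77 in control arrays, and Pdgfrb read 13.27 to 13.31 and 13.29 to 13.41. The mean of 9 stellate markers was 13.03 to 13.05 in knockout and 13.14 to 13.23 in control arrays, with Reln, Hgf and Hand2 called lower. Of 5 markers common to leukocytes, 4 were above the guide level and 0 were called by limma (0 at unadjusted p under 0.05). Their mean was 7.02 to 7.35 in knockout and 6.95 to 7.39 in control arrays, with Ptprc at 6.86 to 7.48 and 6.59 to 7.26 and Laptm5, the brightest, at 7.93 to 8.72 and 7.82 to 8.62. Of 12 macrophage markers, 11 were above the guide level, with a mean of 7.47 to 8.02 in knockout and 7.48 to 8.40 in control arrays. Cd68 read 9.55 to 10.06 and 10.07 to 10.56, C1qb 8.22 to 9.53 and 8.28 to 9.56, Lyz2 8.23 to 9.72 and 8.16 to 9.41, and Adgre1 6.54 to 7.19 and 6.45 to 7.37. Of the 12, 1 was called, Cd68, lower in knockout cells, and 4 had an unadjusted p under 0.05, all lower. These were Cd68, Clec4f, Vsig4 and Timd4. Clec4f read 7.01 to 7.15 and 7.30 to 7.91 without overlap (log2 difference -0.45, SE 0.12, limma adjusted p = 0.0517). Vsig4 differed by -1.24 (SE 0.39) and Timd4, not above the guide level, by -0.20 (SE 0.081). Differences above 0 were found for Csf1r (7.42 to 8.32 and 7.37 to 8.29), Adgre1, Marco, C1qa, C1qc and Lyz2, none of them called. Endothelial RNA varied widely within both groups: the mean of 11 sinusoidal markers was 8.56, 9.52, 9.27 and 9.87 in knockout arrays, against 8.52, 10.64, 9.48 and 11.14 in control arrays, with Stab2 at 8.50 to 10.24 and 7.79 to 11.35, Pecam1 at 7.41 to 8.52 and 7.28 to 9.84, and 1 of 11, Clec4g, called lower. The mean of 10 hepatocyte markers overlapped too (9.65 to 11.03 in knockout and 9.23 to 11.22 in control arrays), as did Alb (12.56 to 13.34 and 12.01 to 13.55). Of these 10, 0 were called and 2 had an unadjusted p under 0.05, in opposite directions. Cyp2e1 differed by -1.21 (SE 0.43), and Trf by 0.22 (SE 0.071) without overlap. The mean of 8 portal fibroblast markers did not overlap, at 8.75 to 8.93 in knockout and 7.93 to 8.16 in control arrays, with Cd34, Dpt, Eln and Mfap4 called higher. Cd34 and Dpt differed most, by 3.08 and 2.28 on the log2 scale. The other 4, Thy1 (-0.10), Entpd2 (-0.29), Gli1 (-0.007) and Pi16 (-0.013), had differences below 0 and were not called. The part of these marker lists in the differences between the groups was not tested. Where a value with a marker level as a covariate is given, it describes that fit only. With 8 arrays and a mean over markers, such a fit cannot settle a cell type's part. In these sorted populations, fewer cells of a type and less RNA per cell cannot be told apart.

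Of the 56 members, 32 had a group mean above the guide level and 24 did not. The test called 6 of 56 (10.7%), beside 7.38% of all genes. Called higher in knockout cells were 4 (7.14%), beside 3.76% of all genes: the ligands Cxcl12, Ccl19 and Pf4 and the atypical receptor Ackr3. Called lower were 2 (3.57%), beside 3.63% of all genes: the ligand Ccl2 and the atypical receptor Ackr1. The other 50 members were not called, 26 of them above the guide level. Knockout and control arrays did not overlap for 16 of 56 members (28.6%), beside 12.7% of all genes, with 8 higher and 8 lower, and 10 of the 16 were not called. The median log2 difference over the members was -0.053, beside -0.017 over all genes, with 19 members above 0 and 37 below. By class, limma called 2 of the 4 atypical receptors, 4 of the 35 ligands and 0 of the 17 classical receptors, of which 2 had an unadjusted p under 0.05.

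**Figure D1:**
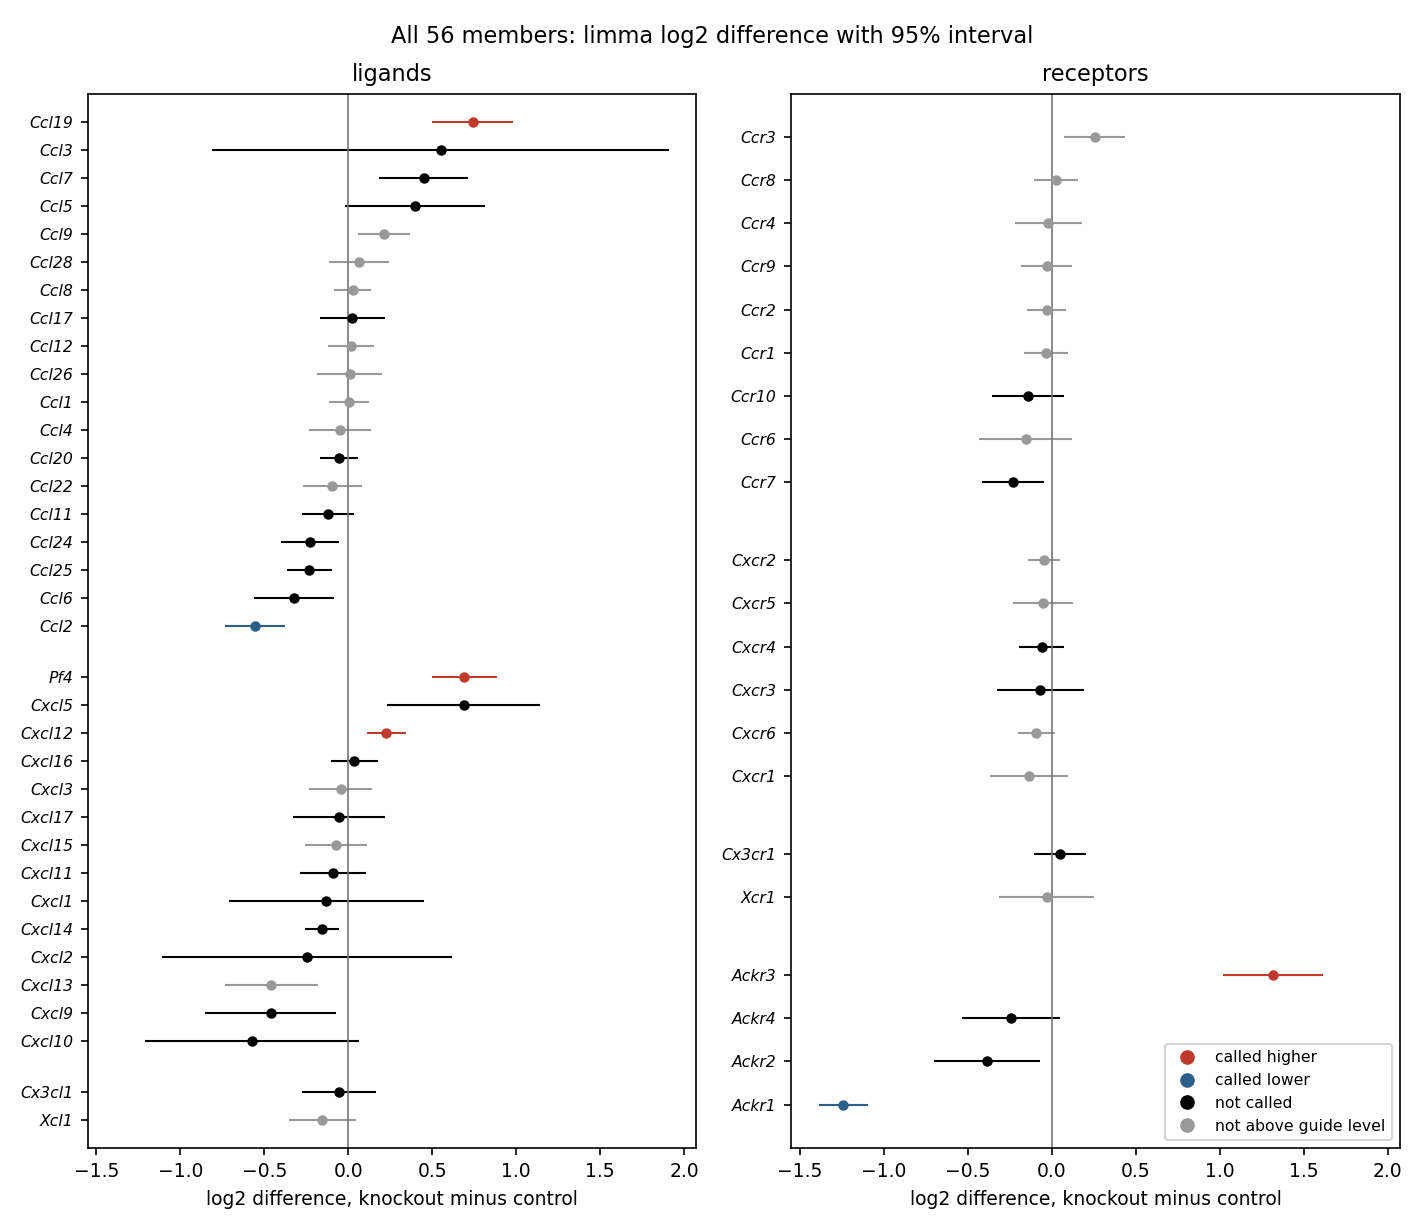
Log2 difference, knockout minus control (horizontal axis), of every member with its 95% interval from limma, ligands on the left and receptors on the right, grouped by class. Red points were called higher, blue points called lower, black points were above the guide level and not called, and grey points were not above it; Ackr3 at 1.32 and Ackr1 at -1.24 lie outside the range of all other members.

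To show the DNA beside these values, the 250 bases before the annotated start of each gene were read from RefSeq (GRCm38.p6), which gave a window for 42 of the 56 members, 5 of the 6 called ones among them. Positions are counted back from the start. They were searched on both strands for TAATTA, a core that homeodomain factors such as Lhx2 can bind, for GGNNTTTCC, a sequence of the kappa-B type, and for GAAANNGAA, of the interferon response type. Of 27025 genes with a window, 5.65% held the homeodomain core, 5.62% the kappa-B type and 8.18% the interferon type. Among members, the homeodomain core was in 2 of 42 (4.76%), Ackr4 and Cxcl15, and in 0 of the 5 called. The kappa-B type was in 9 of 42 (21.4%) and in 0 of the 5 called. The interferon type was in 8 of 42 (19.0%) and in 1 of the 5 called, Ccl19. No matches within a member's window overlapped one another. A match is a string of letters and not a shown binding site, and its absence says only that these letters are not in this window.

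Cxcl12, the ligand that retains blood stem cells and lymphocytes in their niches, rose in the knockout cells by a small amount. Its values were 13.34, 13.44, 13.42 and 13.47 in knockout arrays, against 13.13, 13.23, 13.24 and 13.17 in control arrays. Every knockout array lay above every control array. The log2 difference was 0.23 (SE 0.051, 95% interval 0.11 to 0.34, 1.17-fold, limma adjusted p = 0.0276). This call needed nearly all arrays: the adjusted p was 0.0634 without control 1, 0.0590 without control 2, 0.0816 without control 4, 0.0894 without knockout 6, 0.0665 without knockout 7, 0.0841 without knockout 8 and 0.239 without control 1 and control 4 together, where the difference was 0.18.

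Ackr3, the atypical receptor that binds and removes Cxcl12 and Cxcl11, rose furthest of all members. Its values were 8.15, 8.51, 8.64 and 8.42 in knockout arrays, against 7.39, 6.86, 7.20 and 6.999 in control arrays. The lowest knockout array lay clearly above the highest control array. The level in knockout cells was 2.49 times that in control cells (log2 difference 1.32, SE 0.13, 95% interval 1.02 to 1.61, limma adjusted p = 0.000257). Leaving out each array in turn gave differences of 1.23 to 1.41, all called. Cxcr4, the signalling receptor of the same ligand, stood at 7.36 ± 0.064 in knockout cells and 7.42 ± 0.085 in control cells (SD, n = 4 each), with a difference of -0.06 (95% interval -0.20 to 0.075). The windows before the Cxcl12 start (chr6:117168285-117168534, plus strand) and the Ackr3 start (chr1:90203730-90203979, plus strand) held none of the 3 motifs. Both are shown because these genes were called higher, although the Cxcl12 call did not hold without each array in turn.
Cxcl12: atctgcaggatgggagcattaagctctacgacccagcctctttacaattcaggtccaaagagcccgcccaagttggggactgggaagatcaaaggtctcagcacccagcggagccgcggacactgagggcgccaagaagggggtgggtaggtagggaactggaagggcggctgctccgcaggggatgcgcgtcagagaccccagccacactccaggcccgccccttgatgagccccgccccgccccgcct
Ackr3: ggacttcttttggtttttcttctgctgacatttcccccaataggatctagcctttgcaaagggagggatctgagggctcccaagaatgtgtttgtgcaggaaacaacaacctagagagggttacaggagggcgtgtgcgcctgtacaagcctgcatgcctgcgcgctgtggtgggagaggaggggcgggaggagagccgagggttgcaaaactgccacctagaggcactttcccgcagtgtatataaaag

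Ackr1 fell furthest of all members. It encodes the Duffy antigen receptor, known from venular endothelium and red cells, which binds inflammatory CC and CXC ligands such as Ccl2, Ccl7, Ccl5, Cxcl1 and Cxcl5 without signalling. Its values were 9.94, 9.93, 10.03 and 9.88 in knockout arrays, against 11.35, 11.13, 11.14 and 11.14 in control arrays. The knockout arrays lay close together and far below every control array. The level in knockout cells was 42.3% of that in control cells (log2 difference -1.24, SE 0.065, 95% interval -1.39 to -1.10, limma adjusted p = 4.87e-06). The difference was -1.27 to -1.19 when each array was left out in turn, and -1.28 with the sinusoidal endothelial marker level as a covariate. The highest value, 11.35, was in control 1, which stood apart from the other controls (11.13 to 11.14). The sinusoidal endothelial marker level was 8.52 in control 1 and 10.64, 9.48 and 11.14 in control 2 to 4. No list of venular endothelial or red cell markers was taken, and the part of those cells in the Ackr1 difference was not tested. The window before its start (chr1:173333504-173333753, minus strand), shown because this gene has the smallest adjusted p of the members, held none of the 3 motifs.
Ackr1: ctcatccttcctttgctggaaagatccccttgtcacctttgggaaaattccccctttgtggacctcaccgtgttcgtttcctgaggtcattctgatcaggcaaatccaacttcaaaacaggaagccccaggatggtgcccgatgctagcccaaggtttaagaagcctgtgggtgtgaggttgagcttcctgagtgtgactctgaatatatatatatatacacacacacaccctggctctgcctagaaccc

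The other atypical receptors were not called. Ackr2, which scavenges inflammatory CC ligands, had values of 7.19, 7.28, 7.36 and 7.30 in knockout arrays, against 7.51, 7.69, 7.36 and 8.11 in control arrays. The groups met at 7.36 without overlapping, and control 4 lay apart from the other controls (log2 difference -0.38, SE 0.14, limma adjusted p = 0.174). Without control 4 the difference was -0.23 (adjusted p = 0.203). Ackr4, which takes up Ccl19, Ccl21 and Ccl25, averaged 8.97 ± 0.17 in knockout cells and 9.21 ± 0.26 in control cells (SD, n = 4 each, limma adjusted p = 0.418). The 4 atypical receptors thus lay between -1.24 and 1.32 on the log2 difference scale, with 1 called in each direction.

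**Figure D2:**
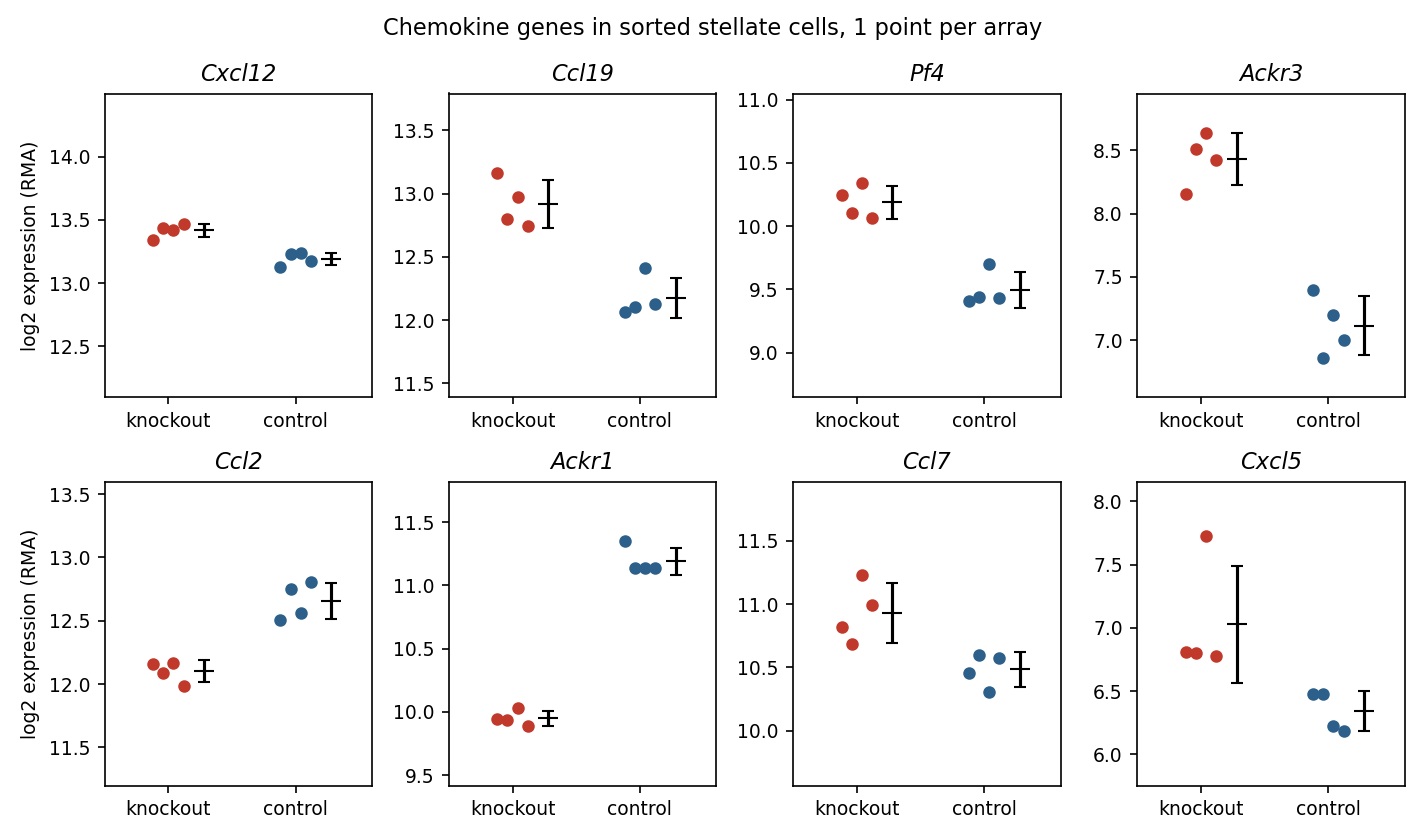
Log2 expression (RMA, vertical axes of equal span) of 8 members on each array, knockout in red on the left and control in blue on the right, with the mean and SD of 4 arrays as a bar beside the points. Knockout lies above control for Cxcl12, Ccl19, Pf4, Ackr3, Ccl7 and Cxcl5 and below it for Ccl2 and Ackr1; Ccl7 and Cxcl5 were not called, and for Cxcl5 the array knockout 7 stands apart at 7.72.

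Ccl19, which draws dendritic cells and naive T cells through the receptor Ccr7, rose in the knockout cells. The values were 13.16, 12.80, 12.97 and 12.75 in knockout arrays, against 12.06, 12.10, 12.41 and 12.13 in control arrays. All knockout arrays lay above all control arrays. The log2 difference was 0.74 (SE 0.11, 95% interval 0.50 to 0.98, 1.67-fold, limma adjusted p = 0.00247). It was called without each array in turn and, with an adjusted p of 0.0447, without control 1 and control 4 together. The array holds 5 probe sets for this symbol, with differences of 0.73 to 0.76. Mouse Ccl19 has near-identical copies, so which copy was measured is uncertain and the 5 are not separate readings. Levels of Ccr7 were 8.02, 7.89, 7.81 and 7.87 in knockout arrays, against 8.33, 8.13, 7.97 and 8.08 in control arrays (log2 difference -0.23, SE 0.083, limma adjusted p = 0.163), and the groups overlapped. The mean of the portal fibroblast markers ran in the same direction as Ccl19 across the groups, at 8.88, 8.81, 8.93 and 8.75 in knockout and 7.93, 8.07, 8.16 and 8.15 in control arrays. Only 4 of these 8 markers were called higher, and their part in the Ccl19 difference was not tested. The window before the Ccl19 start (chr4:42756366-42756615, minus strand) is shown with its interferon-type match in capitals.
Ccl19: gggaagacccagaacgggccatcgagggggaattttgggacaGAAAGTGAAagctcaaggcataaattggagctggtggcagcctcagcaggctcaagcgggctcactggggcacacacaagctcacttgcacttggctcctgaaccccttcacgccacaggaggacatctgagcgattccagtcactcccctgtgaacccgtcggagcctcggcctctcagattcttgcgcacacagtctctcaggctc

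Signals that Ccr7 also reads came from probe sets shared by the Ccl21 copies, which are annotated with several symbols and cannot be assigned to one gene. These read 9.60, 9.55, 10.81 and 10.81 in knockout arrays, against 9.74, 9.56, 10.02 and 9.75 in control arrays. Knockout 7 and knockout 8 stood above all other arrays, while knockout 5 and knockout 6 lay within the control range (log2 difference 0.42, SE 0.30, limma adjusted p = 0.582 over all annotated probe sets).

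Pf4, platelet factor 4, a CXC ligand known from megakaryocytes and macrophages that binds heparan sulfate tightly, rose in the knockout cells. Values were 10.24, 10.10, 10.34 and 10.06 in knockout arrays, against 9.41, 9.44, 9.70 and 9.43 in control arrays. The groups did not overlap, with control 3 highest among the controls. The log2 difference was 0.69 (SE 0.087, 95% interval 0.50 to 0.89, 1.62-fold, limma adjusted p = 0.00109), and it was called without each array in turn. Of 4 megakaryocyte and platelet markers, whose mean was 7.404 to 7.65 in knockout and 7.79 to 7.87 in control arrays, limma called Itga2b, lower (8.85 ± 0.089 in knockout and 10.29 ± 0.098 in control cells, adjusted p = 2.51e-06), Gp9 differed by 0.03 and Treml1 by -0.098, and Ppbp, a platelet chemokine gene next to Pf4, was not above the guide level. With the mean of the macrophage markers, which differed in both directions, as a covariate, the Pf4 difference was 0.69 (limma adjusted p = 0.00378). The mean of the portal fibroblast markers ran in the same direction as Pf4 across the groups. It was 8.75 to 8.93 in knockout and 7.93 to 8.16 in control arrays. Of these 8 markers, 4 were called higher, and the others had differences below 0. The part of the portal fibroblast, platelet and macrophage markers in the Pf4 difference was not tested. The window before the Pf4 start (chr5:90772185-90772434, plus strand), shown because it belongs to a called gene beside 5 other chemokine genes that were not called, held none of the 3 motifs.
Pf4: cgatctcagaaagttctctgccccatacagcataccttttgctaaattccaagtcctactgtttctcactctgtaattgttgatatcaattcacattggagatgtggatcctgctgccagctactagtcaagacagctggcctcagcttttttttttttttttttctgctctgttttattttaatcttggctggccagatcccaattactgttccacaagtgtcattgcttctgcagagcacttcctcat

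Ccl2, the ligand that recruits monocytes through Ccr2, fell in the knockout cells. Its values were 12.16, 12.09, 12.17 and 11.99 in knockout arrays, against 12.51, 12.75, 12.56 and 12.81 in control arrays. The groups did not overlap. The log2 difference was -0.55 (SE 0.079, 95% interval -0.73 to -0.38), a level of 68.1% of control (limma adjusted p = 0.00232), and it was called without each array in turn. Ccl7, a further ligand of Ccr2 and the next chemokine gene on the chromosome, differed the other way without passing the test. Values of Ccl7 were 10.82, 10.69, 11.23 and 10.99 in knockout arrays, against 10.45, 10.60, 10.30 and 10.58 in control arrays, with no overlap (log2 difference 0.45, SE 0.12, limma adjusted p = 0.0511). Without knockout 6 the Ccl7 difference was 0.53 with an adjusted p of 0.0317. The other fits that left out 1 array did not call Ccl7 (limma adjusted p up to 0.129). Ccr2 itself, the receptor on monocytes, was not above the guide level (5.13 to 5.18 in knockout and 5.13 to 5.28 in control arrays), and neither was Ccr1.

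The neutrophil-attracting ligands, which act on Cxcr2, were not called. Cxcl5 had values of 6.81, 6.80, 7.72 and 6.78 in knockout arrays, against 6.47, 6.48, 6.22 and 6.19 in control arrays. Knockout 7 stood far above the rest, the other 3 knockout arrays also lay above all controls, and the controls lay below the 95th percentile of the guide. The log2 difference was 0.69 (SE 0.20, limma adjusted p = 0.0822), and without knockout 7 it was 0.45 with an adjusted p of 0.0177. The other fits that left out 1 array did not call Cxcl5 (limma adjusted p up to 0.190). Cxcl1 ranged over 10.55 to 11.50 in knockout arrays and 10.73 to 11.71 in control arrays, a spread within each group larger than the difference of -0.13 (SE 0.26). Cxcl2 was as variable, with 7.81 to 9.06 in knockout arrays and 7.69 to 9.53 in control arrays (difference -0.25, SE 0.38). Cxcl3, Cxcl15 and the receptors Cxcr1 and Cxcr2 were not above the guide level. Cxcr2 values did not overlap, at 5.36 to 5.41 in knockout and 5.42 to 5.43 in control arrays (log2 difference -0.046, SE 0.043, limma adjusted p = 0.720), which is within the guide range. The stretch from 110 to 51 bases before the starts of 3 of these neighbours (Cxcl1 chr5:90891135-90891194, plus strand; Cxcl2 chr5:90903789-90903848, plus strand; Cxcl3 chr5:90785991-90786050, plus strand) is shown because the same kappa-B letters, GGAATTTCC, stand in all 3, with kappa-B type matches in capitals.
Cxcl1: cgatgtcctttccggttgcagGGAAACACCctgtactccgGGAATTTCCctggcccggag
Cxcl2: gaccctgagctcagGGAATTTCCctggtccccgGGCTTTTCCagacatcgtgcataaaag
Cxcl3: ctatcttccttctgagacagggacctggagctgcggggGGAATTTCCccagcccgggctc

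The interferon-induced ligands of Cxcr3, which attract activated T cells and natural killer cells, were lower in mean but not called. Cxcl10 had values of 12.14, 12.49, 12.03 and 12.95 in knockout arrays, against 12.76, 13.51, 12.29 and 13.35 in control arrays. Control 2 and control 4 were highest, and the groups overlapped (log2 difference -0.57, SE 0.28, limma adjusted p = 0.363). Cxcl9 had 9.90, 10.31, 10.15 and 10.53 in knockout arrays, against 10.42, 10.91, 10.39 and 11.01 in control arrays, again highest in control 2 and control 4 (log2 difference -0.46, SE 0.17, limma adjusted p = 0.187). The same 2 control arrays had the highest endothelial marker levels, 10.64 and 11.14, and with that level as a covariate the differences were -0.32 for Cxcl10 (adjusted p = 0.525) and -0.27 for Cxcl9 (adjusted p = 0.133). Cxcl11, listed by RefSeq (GRCm38.p6) as a transcribed pseudogene, differed by -0.092 (SE 0.086) and Cxcr3 by -0.067 (SE 0.12). Both groups had received poly(I:C), so the comparison holds no sample without interferon induction. The windows before Cxcl9 (chr5:92328080-92328329, minus strand) and Cxcl10 (chr5:92348890-92349139, minus strand) are shown because they are the only member windows with matches of both the interferon and the kappa-B type, here in capitals.
Cxcl9: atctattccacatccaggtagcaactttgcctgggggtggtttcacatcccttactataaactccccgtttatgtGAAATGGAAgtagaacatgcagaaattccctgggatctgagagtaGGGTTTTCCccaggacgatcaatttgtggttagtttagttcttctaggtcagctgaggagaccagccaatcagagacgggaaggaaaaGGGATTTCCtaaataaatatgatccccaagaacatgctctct
Cxcl10: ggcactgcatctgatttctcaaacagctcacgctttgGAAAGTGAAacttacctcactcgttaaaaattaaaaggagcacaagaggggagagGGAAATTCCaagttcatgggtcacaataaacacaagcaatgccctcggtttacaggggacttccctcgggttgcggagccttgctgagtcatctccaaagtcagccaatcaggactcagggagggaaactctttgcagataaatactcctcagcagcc

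**Figure D3:**
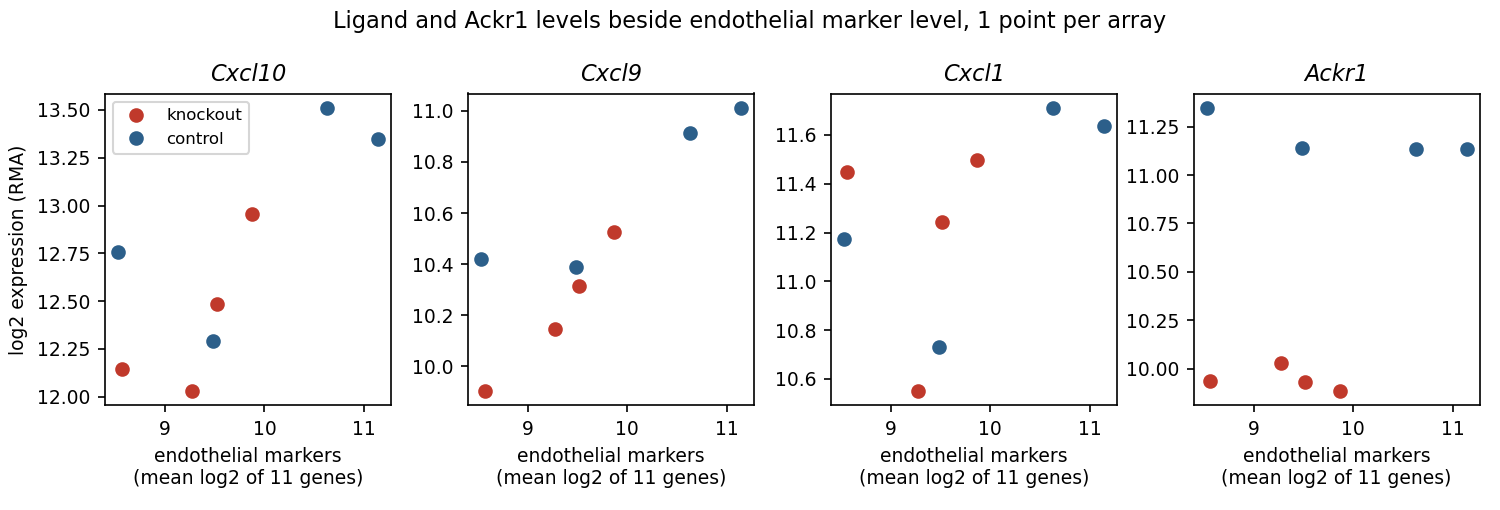
Log2 expression (RMA, vertical axes) of Cxcl10, Cxcl9, Cxcl1 and Ackr1 on each array against the mean log2 level of 11 sinusoidal endothelial markers (horizontal axis), knockout in red and control in blue. Control 2 and control 4, at 10.64 and 11.14 on the horizontal axis, hold the highest Cxcl10, Cxcl9 and Cxcl1 values, and no knockout array lies beyond 9.87 on that axis. The knockout arrays lie below the control arrays for Ackr1.

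Among the remaining CXC ligands, Cxcl14, made by many epithelia and stroma, had values of 11.37, 11.37, 11.40 and 11.41 in knockout arrays, against 11.59, 11.52, 11.51 and 11.56 in control arrays. These did not overlap, with little spread in either group, and the difference of -0.16 was not called (SE 0.045, limma adjusted p = 0.0755). Cxcl13, which guides B cells to follicles, read 6.36, 6.34, 6.21 and 6.30 in knockout arrays, against 6.95, 6.62, 7.03 and 6.43 in control arrays. Its group means were below the 95th percentile of the guide, and the difference was -0.46 (SE 0.12, limma adjusted p = 0.0578). Without control 4 the adjusted p was 0.0126. The other fits that left out 1 array did not call Cxcl13 (limma adjusted p up to 0.137). Cxcl16, a membrane-bound ligand that holds natural killer T cells in the sinusoids through Cxcr6, averaged 11.11 ± 0.077 in knockout cells and 11.07 ± 0.087 in control cells (SD, n = 4 each, difference 0.036, 95% interval -0.10 to 0.18). Cxcr6 was not above the guide level, at 6.00 to 6.11 in knockout and 6.12 to 6.20 in control arrays without overlap (log2 difference -0.092, SE 0.05, limma adjusted p = 0.424). Cxcl17 averaged 7.79 ± 0.20 in knockout cells and 7.85 ± 0.20 in control cells.

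None of the other 17 CC ligands was called by limma (5 had an unadjusted p under 0.05), and several varied between arrays of 1 group. Ccl25, the ligand of Ccr9 that homes T cells to gut and thymus, had values of 7.65, 7.59, 7.56 and 7.45 in knockout arrays, against 7.88, 7.72, 7.80 and 7.76 in control arrays. The groups did not overlap, and the difference of -0.23 (SE 0.06) sat at an adjusted p of 0.0504 with limma. With the mean of its probe sets the adjusted p was 0.0226. Leaving out each array in turn gave limma adjusted p-values of 0.0534 to 0.130, none of them a call. Ccl11, eotaxin, which attracts eosinophils through Ccr3, averaged 8.91 ± 0.083 in knockout cells and 9.03 ± 0.11 in control cells (SD, n = 4 each, limma adjusted p = 0.446). Ccl5, made by T cells and many activated cells, ranged over 8.62 to 9.57 in knockout arrays and 8.40 to 8.67 in control arrays, with knockout 7 highest (difference 0.40, SE 0.19, and 0.18 without knockout 7). Ccl3, a ligand of activated macrophages, ranged over 7.51 to 9.94 in knockout arrays and 7.12 to 9.71 in control arrays, which left an interval of -0.81 to 1.91 for its difference.

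Ccl6, known from mouse macrophages, averaged 7.61 ± 0.19 in knockout cells and 7.93 ± 0.15 in control cells (SD, n = 4 each, log2 difference -0.32, limma adjusted p = 0.119). Without knockout 7 its adjusted p was 0.0351. The other fits that left out 1 array did not call Ccl6 (limma adjusted p up to 0.300). Its neighbour Ccl9 was not above the guide level but did not overlap, at 6.55 to 6.80 in knockout and 6.38 to 6.53 in control arrays (log2 difference 0.21, SE 0.069, limma adjusted p = 0.115). Ccl24 differed by -0.23 (SE 0.077), Ccl20 by -0.055 (SE 0.05) and Ccl17 by 0.024 (SE 0.087). The membrane-bound ligand Cx3cl1, fractalkine, differed by -0.055 (95% interval -0.28 to 0.17) and its receptor Cx3cr1, carried by monocytes and microglia, by 0.051 (95% interval -0.10 to 0.21). Ccl1, Ccl4, Ccl8, Ccl12, Ccl22, Ccl26, Ccl28 and Xcl1 were not above the guide level and were not called.

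Of the 17 classical receptors, 5 (Ccr7, Ccr10, Cxcr3, Cxcr4 and Cx3cr1) were above the guide level. Ccr10 averaged 7.66 ± 0.096 in knockout cells and 7.80 ± 0.19 in control cells (SD, n = 4 each). Ccr3, the eotaxin receptor, was below the guide level but did not overlap, at 6.29, 6.25, 6.44 and 6.57 in knockout arrays, against 6.23, 6.15, 6.02 and 6.13 in control arrays (log2 difference 0.26, SE 0.08, limma adjusted p = 0.104). The remaining receptors, Ccr1, Ccr2, Ccr4, Ccr6, Ccr8, Ccr9, Cxcr1, Cxcr2, Cxcr5, Cxcr6 and Xcr1, were not above the guide level either. Over the 24 members at or below the guide level, differences ranged between -0.46 and 0.26, and the smallest adjusted p was 0.0578.

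Many of these genes lie side by side, and 35 of the 56 had another member within 200 kb in the RefSeq annotation (GRCm38.p6), in 9 groups. On chromosome 11, Ccl2 (-0.55, called), Ccl7 (0.45) and Ccl11 (-0.12) follow each other with differences of both signs, and the next members, Ccl12, Ccl8 and Ccl1, were at the guide level. Further along the same chromosome, Ccl5 (0.40), Ccl9 (0.21), Ccl6 (-0.32), Ccl3 (0.55) and Ccl4 (-0.048) also had both signs. On chromosome 5, Cxcl5 (0.69) and Pf4 (0.69) are neighbours with positive log2 differences, of which that of Cxcl5 was not called and was 0.45 without knockout 7, and Ppbp between them differed by 0.15 (SE 0.20). Cxcl3 (-0.045), Cxcl15 (-0.075), Cxcl1 (-0.13) and Cxcl2 (-0.25), which come next, had negative differences and were not called. Cxcl9, Cxcl10 and Cxcl11 form a separate group on chromosome 5 with 3 negative differences, none of them called by limma (Cxcl9 alone had an unadjusted p under 0.05). The receptor group on chromosome 9, from Ccr9 to Ccr2, held 6 members, none of them above the guide level.

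**Figure D4:**
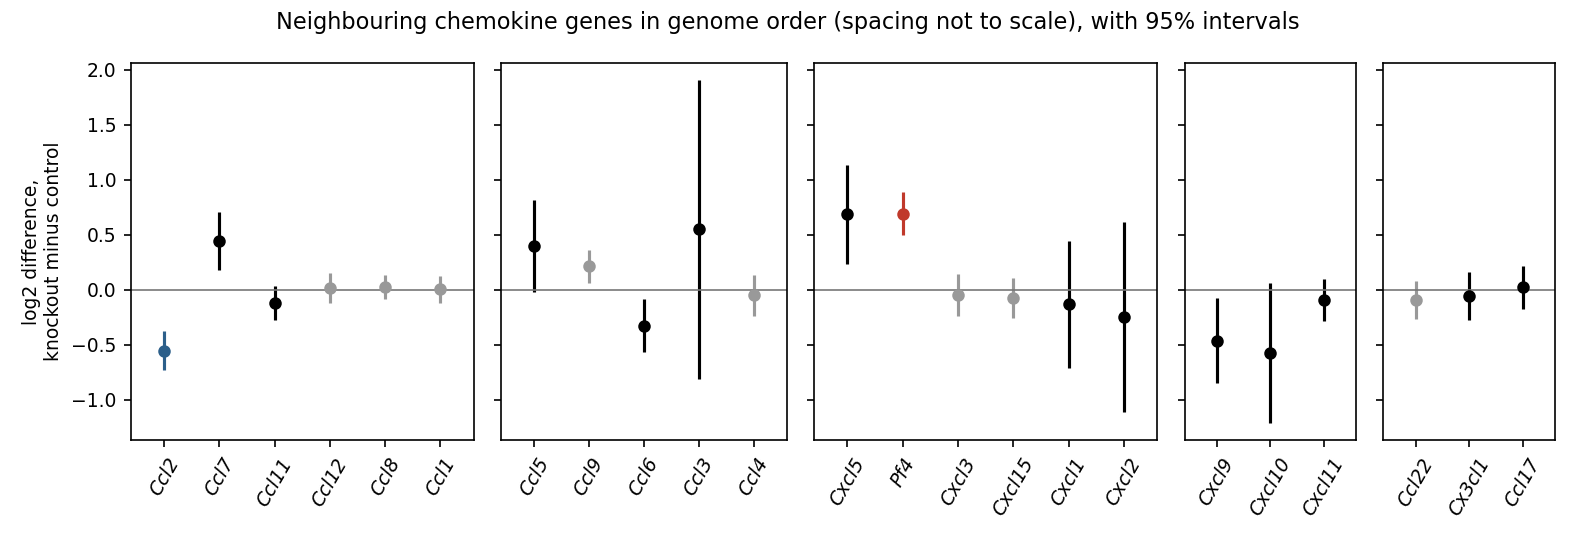
Log2 difference, knockout minus control (vertical axis), with 95% intervals, of members in 5 groups of neighbouring genes, drawn in genome order with equal spacing rather than to scale. Red marks a gene called higher, blue one called lower, black one above the guide level and not called, and grey one not above it; Ccl2 at -0.55 and Ccl7 at 0.45 stand next to each other, and Pf4 at 0.69 lies near Cxcl5, which was not called and has the wider interval.

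Genes for the heparan sulfate that holds chemokines and for the enzymes that trim or shed them were taken as a list and described by the calls of their single genes. Of 22 such genes measured, 8 were called higher and 1 lower (40.9%, beside 7.38% of all genes; median log2 difference 0.052, beside -0.017 over all genes). The list was chosen with earlier results of these data known, so its share is not read as a result about the list. Its genes were also mostly above the guide level (20 of 22), whereas the share of all genes includes dim ones. The portal fibroblast marker level was also higher in knockout arrays, at 8.75 to 8.93 against 7.93 to 8.16 in control arrays, with 4 of 8 markers called, and its part in these calls was not tested. Sulf2 and Sulf1, sulfatases that remove 6-O-sulfate from heparan sulfate outside the cell, rose by 1.89 (SE 0.14, 3.72-fold, limma adjusted p = 3.62e-05) and 0.93 (SE 0.14, adjusted p = 0.00315). Sulf2 had 8.69, 8.97, 9.40 and 9.21 in knockout arrays, against 7.27, 7.24, 7.20 and 6.99 in control arrays, far apart. Hs6st1, which adds 6-O-sulfate, rose as well, by 0.58 (SE 0.10, limma adjusted p = 0.00714), as did Hs2st1, a 2-O-sulfotransferase, by 0.35 (SE 0.072, adjusted p = 0.0182).

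The cell-surface proteoglycans Sdc1 and Sdc2, which carry heparan sulfate, rose by 0.68 (SE 0.097) and 0.27 (SE 0.064), with limma adjusted p-values of 0.00221 and 0.0323. Mmp2, a gelatinase that clips Cxcl12 and Ccl7, had 13.27, 13.35, 13.38 and 13.31 in knockout arrays, against 12.20, 12.20, 12.33 and 12.36 in control arrays. It rose 2.07-fold (log2 difference 1.05, SE 0.058, limma adjusted p = 6.49e-06), and Mmp14, which activates pro-Mmp2, rose by 0.28 (SE 0.066, adjusted p = 0.0320). Hpse, heparanase, which cuts heparan sulfate, was the single gene called lower (-0.24, SE 0.054, limma adjusted p = 0.0292). Dpp4, which trims Cxcl12 and Cxcl10 at the amino end, differed by -0.88 (SE 0.57) and was not called, with a control SD of 1.32. Of these 9 calls, Sulf2, Sulf1, Mmp2, Sdc1 and Hs6st1 held without each array in turn. The others did not: Mmp14 was lost whichever array other than knockout 5 was left out, Hpse whichever other than control 1 or knockout 5, Sdc2 without control 1, control 2, control 4, knockout 6 or knockout 7, and Hs2st1 without control 2, knockout 5 or knockout 6 (adjusted p up to 0.106). The count called higher was 5 without control 2 or without knockout 6, and 4 without control 1 and control 4 together.

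**Figure D5:**
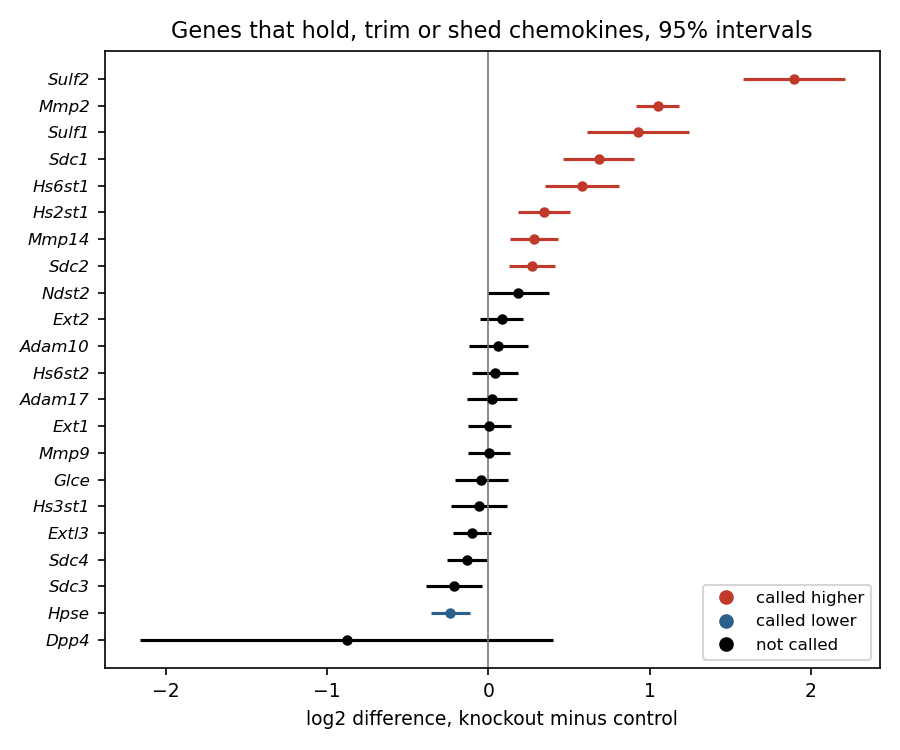
Log2 difference, knockout minus control (horizontal axis), with 95% intervals from limma, of 22 genes that hold, trim or shed chemokines, ordered by difference. Red points were called higher, blue lower and black not called; 8 red points run from Sdc2 at 0.27 to Sulf2 at 1.89, and Hpse at -0.24 is the blue point.

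Of 27 measured genes that carry the chemokine signal inside the cell, limma called 4, all lower (14.8%, beside 7.38% of all genes called in either direction and 3.63% called lower; median log2 difference -0.053, beside -0.017 over all genes; 11 of 27 at unadjusted p under 0.05). These were Gng2 (-0.53, SE 0.11, limma adjusted p = 0.0200), Plcb2 (-0.40, adjusted p = 0.0124), Gnai2 (-0.23, adjusted p = 0.0293) and the cytoskeletal GTPase gene Rac1 (-0.21, adjusted p = 0.0359). Gng2 and Gnai2 encode G protein subunits and Plcb2 a phospholipase downstream of them. Plcb2 was called without each array in turn. Rac1 lost its call whichever array was left out, Gnai2 whichever other than control 2 or knockout 7, and Gng2 without knockout 5, knockout 6 or knockout 8 (adjusted p up to 0.119). The count called lower was 1 without knockout 5, 6 or 8 and 2 without control 3 or control 4. Most genes of this list were above the guide level (25 of 27), whereas the share of all genes includes dim ones. With 4 calls, most of them lost when single arrays were left out, the share is not read as a result about the list.

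Of 27 measured cytokines, receptors and transcription factors that switch chemokine genes on, limma called 3, all lower (11.1%, beside 7.38% of all genes called in either direction and 3.63% called lower; median log2 difference -0.12, with 6 of 27 at unadjusted p under 0.05). Most genes of this list were above the guide level (26 of 27), whereas the share of all genes includes dim ones. With only 3 calls, the share is not read as a result about the list. Il1rap, the shared subunit of interleukin-1 family receptors, averaged 9.03 ± 0.21 in knockout cells and 9.60 ± 0.14 in control cells (SD, n = 4 each, log2 difference -0.57, limma adjusted p = 0.0119). Tnfrsf1b, a receptor for tumour necrosis factor, averaged 11.39 ± 0.078 in knockout cells and 11.85 ± 0.10 in control cells (log2 difference -0.46, limma adjusted p = 0.00249). Rela, a DNA-binding subunit of NF-kappa-B, fell by 0.34 on the log2 scale (SE 0.077, limma adjusted p = 0.0269) and lost its call whichever array other than control 2 or knockout 7 was left out (adjusted p up to 0.0782). Il1a, Nfkbiz and Irf1, at -1.04, -0.80 and -0.40 on the log2 difference scale, varied widely and were not called (SE 0.83, 0.36 and 0.29). Other chemoattractants and their receptors, among them Rarres2, Mif and Ccrl2, had 0 of 16 called with limma (4 at unadjusted p under 0.05), and without control 1 there was 1 called lower.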

How the data were processed

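The deposited table holds 1 log2 value per probe set and array, which the authors normalized with the Robust Multichip Algorithm (RMA), per the submitters' processing notes. RMA corrects background, brings arrays to a common distribution and summarises probes, and it compresses differences of dim and very bright probe sets. Neither a batch nor a scan date is named in the labels, and batch effects were therefore not tested; the RMA version is not given in the sources consulted. Per the labels' protocols, 150 ng of RNA was labelled per sample. The values span 4.19 to 14.42, and array medians 7.42 to 7.47.

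Of 35556 probe sets, the platform annotation listed 23410, 21789 with 1 gene symbol and 1621 with several, and left 12146 unnamed. A RefSeq gene table (GRCm38.p6) held the gene identifiers of 21698 and altered 0 symbols. Only probe sets with 1 symbol were used, and the probe set with the highest mean stood for each of the 19938 genes. Sample titles gave the groups and the array numbers.

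Knockout minus control was fitted over all 8 arrays without covariates (lmFit and eBayes of limma 3.58.1, R 4.3.3; two-sided; Benjamini-Hochberg over all genes; threshold 0.05; no filter on dim genes), after tests on simulated data. Members, the 4 pathway lists (92 of 104 entries measured) and the 12 marker lists (92 of 98) were chosen with earlier results of these data known. Named were all called members, all with non-overlapping groups, all above the guide level, the called genes of each list, and 10 genes fixed by name; further genes named to complete a passage were chosen after their values were seen. A member was above the guide level where the mean of either group exceeded the guide's 95th percentile. Marker levels are means of log2 values. Promoter windows came from RefSeq tables (GRCm38.p6) and were read with Python 3.11.15 and pandas 2.3.3. The number of arrays limits precision: the SE of a member's difference had a median of 0.083 and a maximum of 0.60.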

Additional observations from a re-analysis of the deposited data

Results flagged for a closer look

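In 4 of 76 groups of 4 arrays tested, 1 array stood far from the other 3 for its gene. Chance gives such a gap in about 1 of 20 groups. For Ackr1, control 1 read 11.35 and the other controls 11.13 to 11.14. For Cxcl17, control 1 read 8.15 and the other controls 7.72 to 7.77. For Cxcl5, knockout 7 read 7.72 and the other knockout arrays 6.78 to 6.81. For Pf4, control 3 read 9.70 and the other controls 9.41 to 9.44.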

How the results depend on the processing

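The alternatives were median centring, quantile normalization, 2 filters on dim genes, array weights, a robust eBayes fit with a trend, a gene's probe sets averaged or taken singly, leaving out each array in turn or control 1 and control 4 together, a marker level as covariate, and a threshold of 0.01 for counts. Their use on list counts and on all genes was added after the data were seen. Ackr1, Ackr3, Ccl19, Ccl2, Pf4 and Lhx2 stayed called with the same sign under all 20, and Cxcl12 under 13 of 20. Members called higher numbered 3 to 6, and those called lower 4 with array weights, the endothelial or the hepatocyte level, against 2. Without control 1 and control 4 the calls numbered 371 higher and 405 lower over all genes, 4 higher and 0 lower for presentation, 0 lower for signalling and 1 lower for inducers. At 0.01 they were 386 and 389, 5 and 0, 0 and 1. Signalling had 2 called lower after centring or with the macrophage level, which also gave 0 lower for presentation. Other chemoattractants had 1 called lower with array weights or each probe set. Leaving out each array gave 5 to 7 higher and 0 to 1 lower for presentation, 1 to 3 lower and 0 to 1 higher for signalling, and 0 to 1 lower for other chemoattractants. Calls absent with all arrays appeared for Ccl7 under 8 alternatives, Cxcl13 under 4, Ccl25 and Cxcl5 under 3, Ccl6 under 2, and Ackr2 and Cxcl14 under 1.

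Signs turned for 6 uncalled members. Leaving out each array gave -0.14 to 0.0095 for Cx3cl1, -0.033 to 0.088 for Ccl17, -0.32 to 0.081 for Cxcl1, -0.11 to 0.046 for Cxcl17, -0.57 to 0.043 for Cxcl2 and -0.14 to 0.029 for Cxcr3. Without control 1 and control 4 the differences were 0.0094 for Cx3cl1, -0.028 for Ccl17, 0.056 for Cxcl17 and 0.048 for Cxcr3. Array weights gave -0.0028 for Ccl17 and 0.016 for Cxcl17, and the endothelial level gave 0.015 for Cxcl1 and 0.042 for Cxcl2. The cause of these changes was not tested. No paired analysis was possible because the groups share no replicate numbers.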
